A study of Oryza sativa with 30 samples.

Results

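The chlorophyll a-b binding family of rice (Oryza sativa) was described across 30 leaf RNA-seq libraries in 16 groups of mutant and wild-type lines. Members were all nuclear genes whose deposited description contains the words chlorophyll a-b binding, plus 4 genes given by identifier. These were Os09g0346500 (CAB1R), Os01g0600900 (CAB2R), Os01g0720500 (Lhcb1.1 here) and Os03g0592500 (LHCB). The rule gave 25 of 38978 listed genes, of which 38756 were nuclear, and it used no measured level.

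By the submitters' title, the study asked how chilling and the TOP6 complex bear on photosynthesis genes in rice mesophyll. Seedlings were raised in glass tubes on 0.5× Murashige and Skoog medium at 26 °C, with 13 h of light and 11 h of dark, and were treated at 14 days. Irradiated seedlings received gamma rays from a cobalt source at 1 Gy per min, to 40 or 70 Gy, and leaves were taken 6 h later according to the series' design text, which describes the 40 Gy wild type. Chilled seedlings were kept at 4 °C for 24 h.
The ATM wild type had 3 untreated, 3 irradiated (70 Gy) and 1 chilled library, and the atm-1 mutant had the same numbers. The top6a3 mutant had 3 untreated libraries and its labelled wild type, TOP6A3, had 1. The atr mutant had 1 untreated and 1 irradiated (70 Gy) library. The DJ wild type and the line labelled ku70 mutant each had 2 untreated and 2 irradiated (40 Gy) libraries. The line labelled TOP6A3-OE1, an overexpression line by its label, and the line labelled TOP6A3-OE1_atm-2 each had 1 library at 40 Gy and none untreated. By its title, TOP6A3-OE1 atm, the latter line carries an atm mutation together with the overexpression. The labels do not name the promoter behind the overexpression. No label says that replicates are separate plants, and the p-values therefore describe the spread among libraries, which may be technical.

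Light-harvesting proteins hold chlorophyll and carotenoids in the thylakoid membrane and pass absorbed energy to the reaction centres. Trimers of Lhcb1, Lhcb2 and Lhcb3 form the major antenna of photosystem II, the monomers CP29, CP26 and CP24 link them to the core, and Lhca proteins surround photosystem I. PsbS and the early light-induced proteins (ELIPs) belong to the same family but serve in protection from excess light: PsbS in heat dissipation, and ELIPs while pigment complexes are built or dismantled.

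Between 10364355 and 16477147 reads per library were recovered from the deposited FPKM values (reads scaled by gene length and library size). A level is given in FPKM, and a difference is in log2(FPKM + 1) unless stated otherwise. Only libraries whose tables listed the same genes were tested together, 20 in a set with the ATM, atm-1, atr and both TOP6A3 and top6a3 groups and 10 in a set with DJ, ku70 and the overexpression lines. Called means an adjusted p under 0.05 in limma. Treated and untreated libraries came from separately deposited tables, so table and treatment cannot be told apart. The library labelled TOP6A3 had its own namesake gene at 1899 FPKM, against 4.03, 3.57 and 3.84 FPKM in the top6a3 libraries, a level that goes against its wild-type label. That gene read 4.49 FPKM under the label TOP6A3-OE1 and 3.97 FPKM under TOP6A3-OE1_atm-2, inside the 0 to 5.11 FPKM of the 4 DJ libraries, which goes against the overexpression labels. KU70 (Os07g0184900) was at 24.7 and 37.8 FPKM in untreated and 7.85 and 15.8 FPKM in irradiated libraries labelled ku70, above 5.31 and 0.319 FPKM in untreated and 2.94 and 2.76 FPKM in irradiated DJ. The gene was therefore higher, not lower, in each of the 4 libraries labelled as its mutant, and directions are drawn between libraries as labelled. ATM (Os01g0106700) overlapped between the atm-1 and ATM libraries, and ATR (Os06g0724700) was at 0.206 and 1.12 FPKM in atr, below the 1.37 to 4.33 FPKM of the 7 ATM libraries. The labels do not give the kind or place of any mutation. In 2 libraries, atm-1 control replicate 1 and ATM 70 Gy replicate 3, the share of detected genes that had 1 to 10 reads was 1.53% and 1.70%, against 10.8% to 21.8% in the other 18 of the set. In the smaller set that share was 1.22% and 2.45% in irradiated DJ and 2.57% and 1.28% in untreated DJ. It was 1.81% and 1.37% in irradiated and 8.30% and 2.77% in untreated libraries labelled ku70. A bound drawn from no read assumes that low counts were recorded, which was not tested.

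Of the 25 members, 15 were antenna proteins of the photosystems, 2 were PsbS, 3 were ELIPs and 5 were copies or fragments with few or no reads. The 5 PsbS and ELIP genes were matched by their family domain name alone. In each set 21 members passed the filter on low values. Fragments Os11g0393097 and Os03g0435550, both 136 bases long, had no read in any library. Os04g0457100, which overlaps the CP24 gene on the other strand, had 81 reads over 9 libraries of the larger set and none in the smaller. Os06g0484450 had 17 reads over 5 libraries of the larger set, and in the smaller set it had reads in DJ control replicate 1 alone, at 1.27 FPKM.

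The major photosystem II antenna had 6 genes. CAB1R (chromosome 9, 10845779 to 10847012, plus strand; no source used here names the genome build) had the highest mean level in the larger set, and CAB2R lies on chromosome 1 from 23607363 to 23608541. With Lhcb1.1 (chromosome 1, 30030998 to 30032054) and CabE (Os09g0296800, chromosome 9, 7185218 to 7188139) they are described as LHCII type I proteins, called Lhcb1-type here. Their sequences were not compared. Reads could be divided among copies that are alike, so the level of any 1 copy is uncertain. CabE spans more than its gene length of 1201 bases, unlike the others. LHCB (chromosome 3, 22000043 to 22001240) and the LHCII type III gene (Os07g0562700, chromosome 7, 22487434 to 22488617) complete the group. LHCB is also described as LHCII type I, but it is kept apart here and is not counted among the Lhcb1-type copies. The monomers are CP29 (Os07g0558400, chromosome 7, 22316343 to 22317935), CP26 (Os11g0242800, listed as ASCAB9-A, chromosome 11, 7659701 to 7662180) and CP24 (Os04g0457000, chromosome 4, 22835913 to 22837163). The kit was strand-specific but the counting of strand is not given in the sources used here, so reads of CP24 and its overlapping partner may not be separated. Photosystem I had type I (Os06g0320500), type II (Os07g0577600), the pair of type III genes CAB-8 (Os02g0197600) and cab (Os08g0435900), and the low-level Lhca5 (Os02g0764500) and Lhca6 (Os09g0439500).

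Untreated ATM leaves held the 15 antenna genes at summed levels of 12570.4, 14097 and 15023 FPKM. CAB1R was at 2429, 1951 and 3504 FPKM there, CP29 at 2105, 1614 and 2268 FPKM and LHCI type I at 2092, 3236 and 2344 FPKM. The lowest of these values was that of CP29 in replicate 2, whereas Lhca5 was at 71.1, 88.9 and 90.9 FPKM. Over all 20 libraries of the set the sum ran from 647 FPKM in the chilled ATM library to 36303 FPKM in top6a3 replicate 2, and in the other set from 8206 FPKM in ku70 40 Gy replicate 2 to 68078 FPKM in the TOP6A3-OE1_atm-2 library. In bulk leaf RNA, fewer cells of a type and less RNA per cell cannot be told apart.

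**Figure D1:**
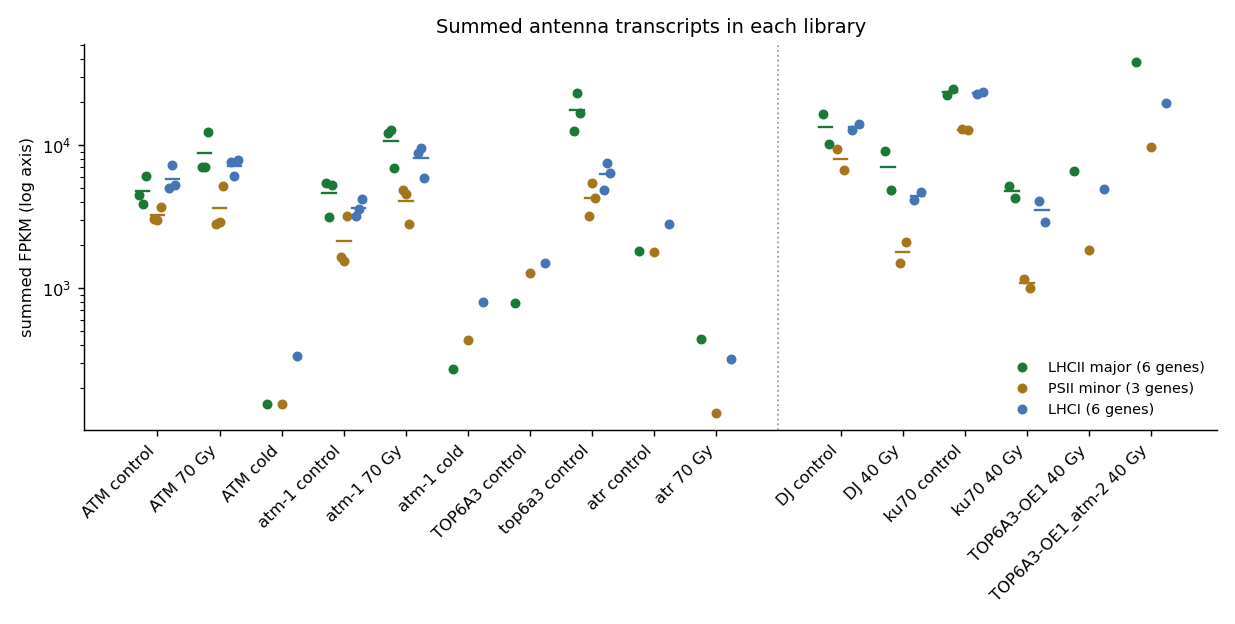
Summed FPKM (log axis) of the 6 major photosystem II antenna genes, the 3 minor ones and the 6 photosystem I genes in each of the 30 libraries. Points are libraries, short lines are group means, and the dotted line divides the 20-library set from the 10-library set. The chilled libraries and the irradiated atr library are the lowest in all 3 classes.

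**Figure D2:**
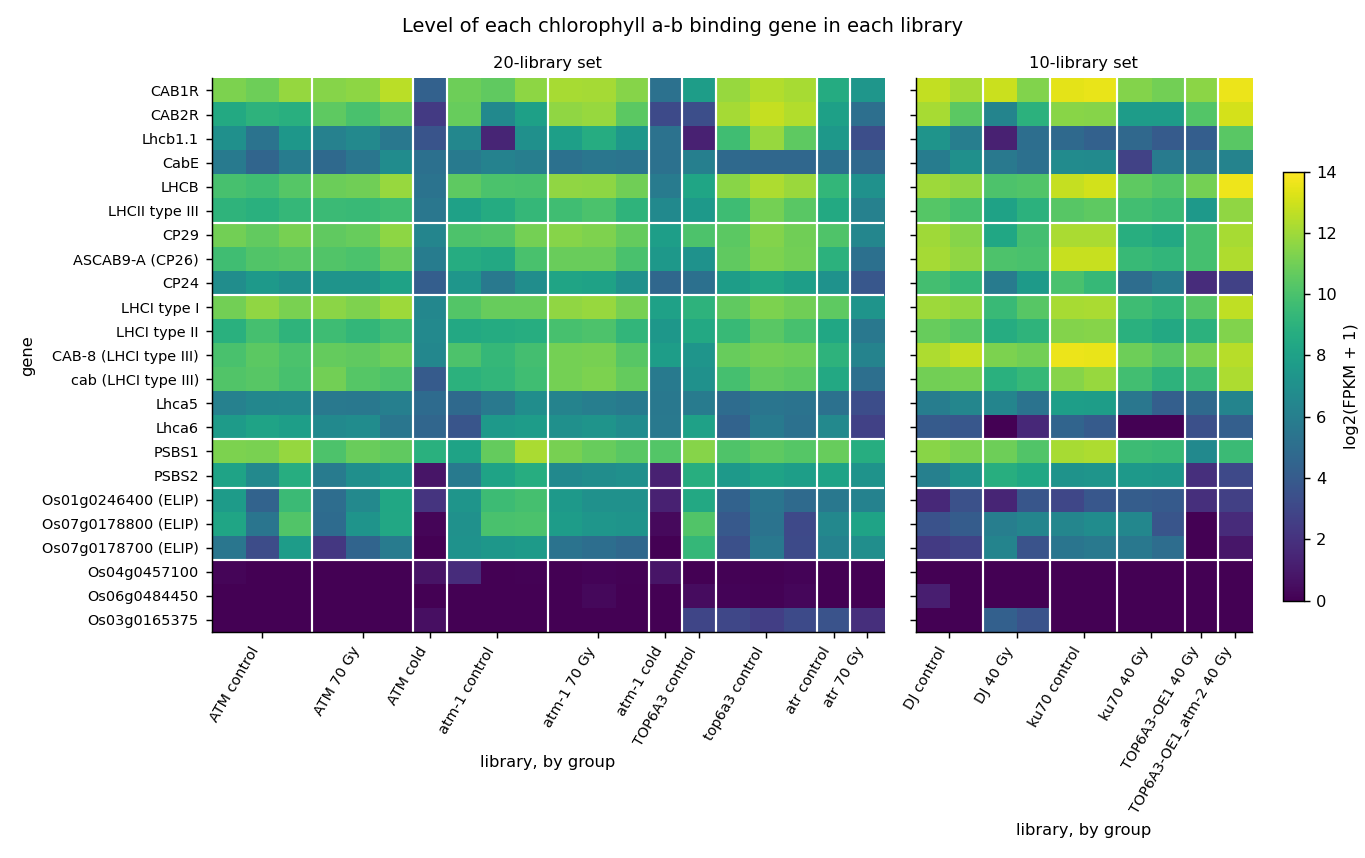
Level of each member with at least 1 read, as log2(FPKM + 1) on a colour scale, in every library (columns, by group) of the 20-library and 10-library sets. Most antenna genes dim together in both cold columns, while Os03g0165375 has reads in few groups.

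Most of the family was lower in the chilled library of either line. In the ATM line the summed level of the 15 antenna genes was 647 FPKM in the cold library, from 7000 reads, against 12570.4, 14097 and 15023 FPKM in the 3 controls. Of the 21 members tested, 14 fell and none rose, where 6.84% of all genes were called lower. The 15 antenna genes, 11 of them called, had a median difference of -3.71, against -0.03 over all genes tested. The cold group is 1 library and is assumed to vary like the other groups. Its value lay below all 3 controls in 14 of the 15 antenna genes and in 38.8% of all genes tested.

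Among the trimeric antenna genes, CAB1R was at 19.4 FPKM in the cold ATM library against 2429, 1951 and 3504 FPKM in the controls. That difference was -6.97 (SE 0.62, adjusted p = 1.68e-05) in limma. CAB2R was at 4.26 FPKM in the cold and 368, 519.9 and 463 FPKM in the controls. Both cold values lay far below every control value. CAB2R differed by -6.41 (SE 1.09, adjusted p = 0.00254) in limma and LHCB by -4.63 (SE 0.53, adjusted p = 0.000149). The genes of the group that were not called were Lhcb1.1, at 11.4 FPKM against 129.9, 40.01 and 169 FPKM, and CabE, at 34.98 FPKM against 51.8, 22.7 and 57.9 FPKM. Lhcb1.1 was still below every control, with a difference of -2.97. CabE, chosen for mention after its values were seen, was the 1 antenna gene whose cold value lay inside the control range, with a difference of -0.22 (95% interval -1.56 to 1.12).

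All 3 monomeric antenna genes fell in the chilled ATM library. CP29, which links trimers to the photosystem II core, was at 81.3 FPKM against 2105, 1614 and 2268 FPKM, a difference of -4.59 (SE 0.595, adjusted p = 0.000402) in limma. CP26 was at 57.1 FPKM against 841, 1182 and 1292 FPKM, and CP24 at 17.4 FPKM against 114, 189.7 and 135 FPKM. Cold and control values did not overlap for any of the 3, and the limma differences were -4.23 (adjusted p = 0.000745) for CP26 and -2.97 (adjusted p = 0.0069) for CP24. Of the 6 photosystem I genes 4 fell, with cab the furthest, from 1165, 1329 and 976 FPKM to 15.3 FPKM. That was a difference of -6.14 (SE 0.47, adjusted p = 4.01e-06) in limma. Lhca5 and Lhca6 did not pass the test, at -1.48 and -3.26.

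The protective members were uneven: Os07g0178800, an ELIP, and PSBS2 had the largest fitted falls of the family, and PSBS1 had a smaller one. The ELIP Os01g0246400 was not called in limma (difference -5.10). PSBS2 (Os04g0690800), which matches PsbS, was at 0.703 FPKM (7 reads) in the chilled ATM library against 275, 95.7 and 417 FPKM in the controls. The difference was -7.04 (SE 1.02, adjusted p = 0.000871) in limma. PSBS1 (Os01g0869800), the other PsbS gene, was at 474 FPKM against 2458, 2342 and 3541 FPKM and did not pass the test (difference -2.52, adjusted p = 0.139 in limma). The cold PSBS1 value was below all 3 controls, as in 38.8% of all genes tested. The ELIP gene Os07g0178800 gave 1 read in the cold library against 302, 42.5 and 1167 FPKM in the controls, a ratio of 3819 with a counting interval of 685 to 150854. Its neighbour Os07g0178700 gave no read, against 44.5, 8.55 and 212 FPKM, at least 249.5-fold lower at a floor of 3 reads per library. Fitted differences of such genes depend on the pseudocount. Limma-voom on recovered reads did not call CAB2R (adjusted p = 0.108), PSBS2 (0.13) or Os07g0178800 (0.158). Control levels of the ELIPs spread widely, and the call for Os07g0178700 was lost without ATM control replicate 1 (adjusted p = 0.0563 in limma) or replicate 3 (adjusted p = 0.0587).

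In the atm-1 mutant most of the family was also lower in the chilled library. The summed antenna level was 1511 FPKM in the cold library against 10306, 8309 and 12677 FPKM in the controls. The cold value lay below all 3 controls in 12 of the 15 antenna genes and in 22.1% of all genes tested. Of the 21 members 13 fell and none rose, where 6.13% of all genes were called lower, and the antenna median was -1.93 with 0 over all genes. CAB1R was at 35.7 FPKM against 1916, 1556 and 3179.7 FPKM, and LHCB was at 56.4 FPKM against 1454, 1039.9 and 1008 FPKM. Both cold values were below all 3 controls, and the differences were -5.85 (SE 0.62, adjusted p = 5.61e-05) and -4.33 (SE 0.53, adjusted p = 0.000206) in limma. CP29 fell by 2.57 on the log2 scale (adjusted p = 0.0121, limma), from 1085, 1157 and 2117 FPKM to 233 FPKM. CP26, at 178 FPKM against 405, 348 and 992 FPKM, did not pass the test (difference -1.54, adjusted p = 0.107 in limma), and neither did LHCI type II (-1.17, adjusted p = 0.132). Lhcb1.1, at 37.5 FPKM against 88.2, 1.77 and 130.1 FPKM, had the 1 positive antenna difference, 0.27, and was inside the control range. PSBS1 was at 1238 FPKM, inside the control range of 282, 1661 and 4711 FPKM.

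All 3 ELIPs and PSBS2 fell in chilled atm-1 leaves. Os01g0246400, an ELIP, was at 1.398 FPKM against 156, 761 and 943 FPKM (difference -7.66, SE 1.604, adjusted p = 0.00702 in limma). Os07g0178800 gave 2 reads against 137, 999.7 and 1052 FPKM, a ratio of 2816 with a counting interval of 780 to 23252, and Os07g0178700 gave no read, at least 490.2-fold lower. PSBS2 was at 1.48 FPKM (15 reads) against 51.4, 282 and 429 FPKM. Every cold value of these 4 genes was below every control value, as for 22.1% of all genes tested. Limma-voom on recovered reads called 8 of the 21 members and did not call PSBS2 (adjusted p = 0.209), Os01g0246400 (0.368) or Os07g0178800 (0.172). With the cold and control atm-1 libraries fitted alone, none of 19253 genes passed the test, members included.

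**Figure D3:**
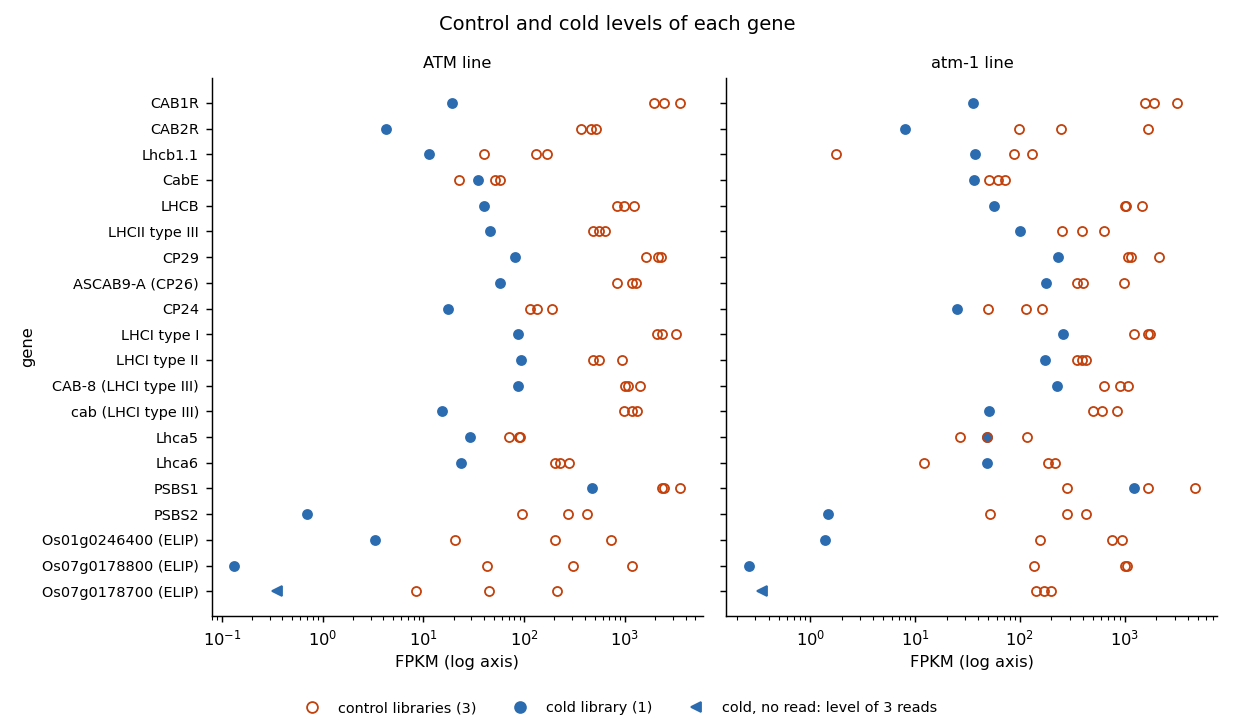
FPKM (log axis) of the 15 antenna, 2 PsbS and 3 ELIP genes in the 3 control libraries (open circles) and the 1 cold library (filled circles) of the ATM line and the atm-1 line. Triangles mark genes with no read, drawn at the level of 3 reads. The cold points lie left of the controls for most genes, with CabE among the controls in the ATM panel.

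No member's cold response differed between the 2 lines by the test. In the cold libraries themselves, 1 against 1 and with no test, 8 of the 15 antenna genes were more than 2-fold higher in atm-1 and none lower, where 9.73% of all genes were past that fold in the same direction. The 3 genes furthest apart were cab (50.6 against 15.3 FPKM), Lhcb1.1 (37.5 against 11.4 FPKM) and CP26 (178 against 57.1 FPKM). The cold response in atm-1 minus that in ATM had an antenna median of 1.58 and limma called no member, with 0.163% of all genes called. By unadjusted p the first were cab, 2.52 (adjusted p = 0.369, limma) and CP26, 2.69 (adjusted p = 0.592). In all, 6 members had an unadjusted p under 0.05, and limma-voom called 0.

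Other genes of the pathway moved less evenly in the cold. In the ATM line 4 of 13 measured chlorophyll synthesis genes fell, among them CHLI, a magnesium chelatase subunit, by 3.62 (log2, limma adjusted p = 0.0237), and PORB, a protochlorophyllide reductase, by 3.20 (adjusted p = 0.00533). GLK2, a transcription factor that activates antenna genes in land plants, rose in both lines, by 1.35 (adjusted p = 0.00745) in ATM and 1.25 (adjusted p = 0.00985) in atm-1 (limma). In atm-1 HEMA1, which starts tetrapyrrole synthesis, rose by 3.67 (adjusted p = 0.0169) while PORB fell by 2.48 (adjusted p = 0.0174, limma). The 15 mesophyll markers, Rubisco small subunit and activase genes, summed to 6118 FPKM in chilled ATM against 8897 to 14103 FPKM in its controls, with 4 to 11 of the 15 at 0 in each of the 30 libraries. In chilled atm-1 they summed to 10356 FPKM against 5959 to 10772 FPKM. Of the 8 tested, 1 fell in ATM and 1 rose in atm-1.

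The share of each Lhcb1-type copy varied from library to library, with the caution that reads of the copies may be divided and that no test was run on shares. CabE is counted among the copies by its description alone. LHCB has a like description but is left out of these shares, which depend on that choice. In chilled ATM LHCB was at 39.7 FPKM, above CabE. In untreated ATM leaves CAB1R supplied most of the summed level and CAB2R supplied 12.3, 20.5 and 11.04% of it. In the top6a3 libraries CAB2R supplied 49.8, 43.1 and 46.7%, against 3.17% in the library labelled TOP6A3. CabE supplied 49.9% in chilled ATM, 30.8% in chilled atm-1 and 21.6% in the library labelled TOP6A3. Its level in those libraries, 34.98, 36.2 and 64.3 FPKM, is set beside 51.8, 22.7 and 57.9 FPKM in untreated ATM. CAB1R in the same 3 libraries was at 19.4, 35.7 and 222 FPKM.

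**Figure D4:**
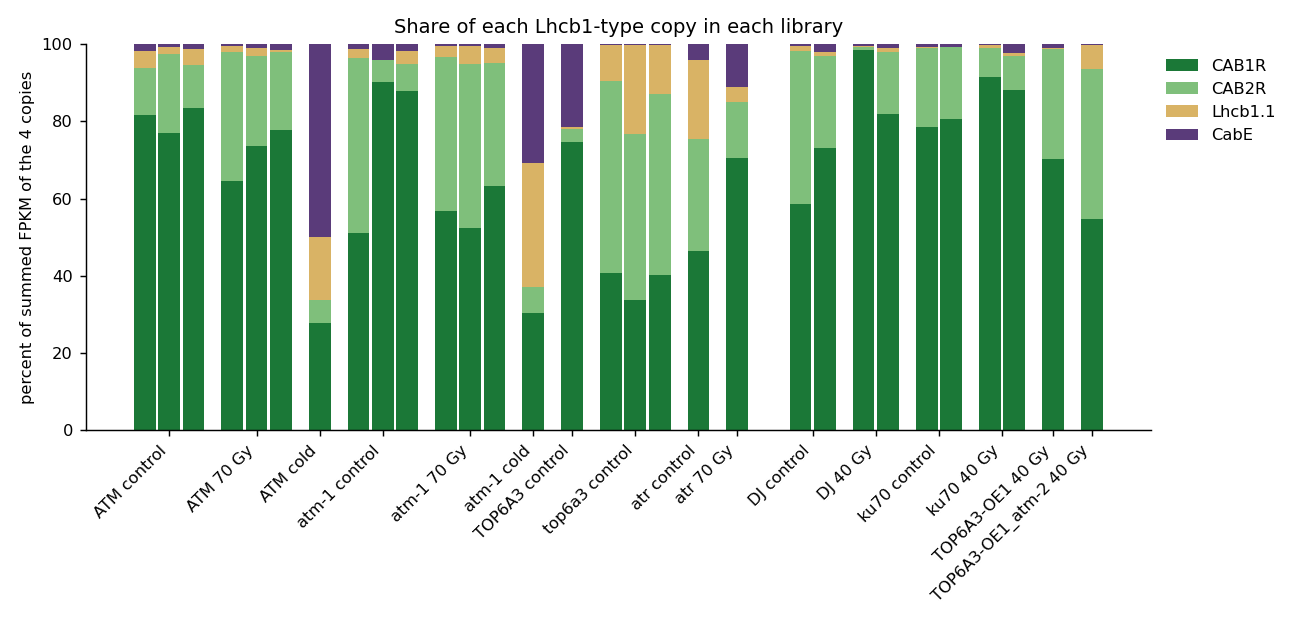
Share of CAB1R, CAB2R, Lhcb1.1 and CabE in their summed FPKM (percent, bars stacked to the whole) in each library, by group. LHCB, also described as LHCII type I, is not included. CAB2R holds 49.8, 43.1 and 46.7% in the 3 top6a3 libraries, and CabE holds 49.9% in the chilled ATM library.

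The antenna genes were higher in top6a3 than in the library labelled TOP6A3, whose own namesake gene goes against its label, so the direction is drawn between libraries as labelled. The summed antenna level was 20720.1, 36303 and 27514 FPKM in top6a3 and 3562 FPKM in the library labelled TOP6A3. That lone sum was the lowest of any untreated library, the next being 6438 FPKM in atr. Untreated ATM was at 12570.4, 14097 and 15023 FPKM, so the size of the differences depends on the lone library. Of the 15 antenna genes 10 were called higher and none lower, where 8.18% of all genes were called higher, and the median difference was 2.81 against 0.06 over all genes. Of the other 6 tested members, 2 ELIPs were called lower, where 4.7% of all genes were. The library labelled TOP6A3 stands alone and is assumed to vary like the other groups.

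The largest differences were in Lhcb1-type copies. Lhcb1.1 was at 825, 3732 and 1487 FPKM in top6a3 and 1.48 FPKM in the library labelled TOP6A3, a difference of 9.39 (SE 1.65, adjusted p = 0.00234) in limma. CAB2R was at 4441, 6971 and 5416 FPKM against 9.44 FPKM, a difference of 9.04 (SE 1.09, adjusted p = 0.000115). CAB1R, at 3625, 5451 and 4665 FPKM against 222 FPKM, differed by 4.34 (SE 0.62, adjusted p = 0.000459). All 3 top6a3 values of each copy were above the lone value, as were those of 41.5% of all genes tested. The library labelled TOP6A3 also had the lowest CAB2R level of any untreated library, the next being 97.4 FPKM in atm-1 control replicate 2. Limma-voom on recovered reads did not call Lhcb1.1 (adjusted p = 0.248).

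All 3 monomeric antenna genes had positive differences, and 2 of them were called. CP26 was at 1527, 2423 and 2050.4 FPKM in top6a3 against 141 FPKM in the library labelled TOP6A3 (difference 3.79, SE 0.598, adjusted p = 0.00106, limma), and CP24 also was called higher, by 2.77 (adjusted p = 0.00915). CP29, at 1433, 2729 and 2020.3 FPKM against 1099 FPKM, was not called (difference 0.86, 95% interval -0.44 to 2.15, adjusted p = 0.385 in limma). In photosystem I, CAB-8, cab and LHCI type I were called higher, while Lhca6 was at 21.1, 52.2 and 35.7 FPKM against 259.8 FPKM and was not called (difference -2.89, adjusted p = 0.13). The call for LHCI type I was lost without top6a3 replicate 2 or 3 (adjusted p = 0.0785 and 0.0818, limma).

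The ELIPs went the other way. Over all genes tested, 36.4% had all 3 top6a3 values below the lone value. Os07g0178800 was at 13.8, 39.99 and 7.401 FPKM in top6a3 and 1159 FPKM in the library labelled TOP6A3 (difference -6.07, SE 1.696, adjusted p = 0.034, limma), and Os07g0178700 at 9.802, 47.3 and 7.91 against 639 FPKM (-5.26, SE 1.496, adjusted p = 0.0369). No top6a3 value overlapped the lone value, but both calls were lost without top6a3 replicate 1 (adjusted p = 0.0728 and 0.086) or replicate 3 (0.0883 and 0.0946). Of the other pathway genes, PORA, another protochlorophyllide reductase, was higher by 7.28 (adjusted p = 0.000814) and GLK1, a transcription factor of antenna genes, by 3.20 (adjusted p = 0.0238) in limma, 1 of 13 synthesis genes and 1 of 2 regulators tested. The mesophyll markers summed to 5513 to 6506 FPKM in top6a3 and 9229 FPKM in the library labelled TOP6A3, opposite in direction to the antenna genes.

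The antenna made up a different mix as well. The 6 trimeric genes held 60.98, 64.3 and 61.2% of the summed antenna level in top6a3, against 22.2% in the library labelled TOP6A3 and 35.8, 27.4 and 40.4% in untreated ATM. They held 24.05% in chilled ATM and 18.1% in chilled atm-1, where the photosystem I genes held 51.9% and 53.1%. These shares take in LHCB and the LHCII type III gene as well as the Lhcb1-type copies, and no test was run on them. The copies summed to 70.03 of 155.5 FPKM of the 6 trimeric genes in chilled ATM. In top6a3 replicate 2 they summed to 16178 of 23335 FPKM.

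Untreated atm-1 and ATM leaves did not differ by limma in any member, and 0% of all genes were called. The antenna sum was 10306, 8309 and 12677 FPKM in atm-1 and 12570.4, 14097 and 15023 FPKM in ATM, and the antenna median was -0.54. The smallest unadjusted p-values were those of cab, at 501, 603 and 845 FPKM against 1165, 1329 and 976 FPKM (-0.85, adjusted p = 0.71, limma), and CP26, at 405, 348 and 992 FPKM against 841, 1182 and 1292 FPKM (-1.06, adjusted p = 0.71). All 3 cab values of atm-1 were below those of ATM, as for 4.15% of all genes tested, whereas CP26 overlapped. These 2 members and 1330 genes in all had an unadjusted p under 0.05 in limma, and limma-voom called 0 genes.

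Few antenna genes were called between the untreated atr library and untreated ATM, a share near that of all genes. CAB1R and cab were lower in atr. CAB1R was at 394 FPKM in atr against 2429, 1951 and 3504 FPKM in ATM (difference -2.69, SE 0.62, adjusted p = 0.0113, limma), and cab at 350.4 FPKM against 1165, 1329 and 976 FPKM (-1.71, SE 0.47, adjusted p = 0.035). Each atr value was below all 3 ATM values, as for 30.9% of all genes tested. Os03g0165375, a 432-base copy described as a chlorophyll a-b binding protein, was at 11.2 FPKM in atr and had no read in ATM, at least 20.7-fold higher. Of the replicated groups in the set only top6a3 had reads of it, and the others gave it no spread. Its call is therefore no sound test, and its levels are given as a description. Of the 21 members 3 were called, where 10.1% of all genes were, and the antenna median was -0.85 against 0.03. The atr group is 1 library, the call for cab was lost without ATM control replicate 1 or 2 (adjusted p = 0.0749 and 0.0786), and with the 2 groups fitted alone CAB1R and cab were not called (adjusted p = 0.0977 and 0.122). Os03g0165375, with reads in 1 library of those 2 groups, could not be tested in that fit.

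Irradiation at 70 Gy left the antenna of the ATM line without a called change. The antenna sum was 17516, 16029.9 and 25401 FPKM at 70 Gy and 12570.4, 14097 and 15023 FPKM untreated, and the lowest irradiated sum lay above the highest untreated one. By limma 0 of 21 members passed the test where 0.525% of all genes did, and the antenna median was 0.31. LHCB was at 1870.1, 1981 and 3683 FPKM against 968, 842 and 1243 FPKM and CAB2R at 1467, 1016 and 1581 FPKM against 368, 519.9 and 463 FPKM. Both genes were higher in all 3 irradiated libraries than in any untreated one, as were 7.21% of all genes tested. Their differences were 1.25 (adjusted p = 0.226) and 1.58 (adjusted p = 0.438) in limma. LHCB was the 1 member with an unadjusted p under 0.05, and limma-voom called 0 members. Lhca6, by contrast, was at 98.5, 109.5 and 43.6 FPKM at 70 Gy and 201, 276 and 227 FPKM untreated. It was lower in all 3, as were 13.9% of all genes tested.

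In atm-1 the antenna level was 25878, 27028 and 15704 FPKM at 70 Gy and 10306, 8309 and 12677 FPKM untreated, with no overlap. No member passed the test by limma, where 11 members had an unadjusted p under 0.05, and neither did any gene of the whole table (0% called, 1877 genes at an unadjusted p under 0.05, and 0 by limma-voom). The antenna median was 1.12 and 14 of 15 differences were positive, against a median of 0.03 over all genes. The gene cab was at 2150.2, 2454 and 1624 FPKM against 501, 603 and 845 FPKM (1.69, adjusted p = 0.443, limma). All 3 of its irradiated values were higher, as for 7.4% of all genes tested. CAB2R was at 3249, 3658 and 1421 FPKM against 1688, 97.4 and 248 FPKM (2.89, adjusted p = 0.555), where untreated replicate 1 was inside the irradiated range. That library is 1 of the pair with few low-read genes. Without that pair the CAB2R difference was 4.04 (adjusted p = 0.0368, limma), and with library weights it was 4.23 (adjusted p = 0.0172).

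The 70 Gy responses of atm-1 and ATM did not differ by limma in any member, where 0.167% of all genes did. At an unadjusted p under 0.05 there was 1 member, and limma-voom called 0. The smallest unadjusted p-values were those of cab, with a difference in responses of 1.38 (adjusted p = 0.574, limma), and Lhcb1.1, with 3.49 (adjusted p = 0.574). Lhcb1.1 was at 236, 402 and 175 FPKM in irradiated and 88.2, 1.77 and 130.1 FPKM in untreated atm-1, against 69.98, 93.9 and 48.5 FPKM and 129.9, 40.01 and 169 FPKM in ATM. Its difference ran from 1.73 to 4.51 with 1 library left out. Irradiated atm-1 and ATM leaves also did not differ in any member by limma, with 0 members at an unadjusted p under 0.05 and 0 by limma-voom. There 0.33% of all genes were called and the antenna median was 0.21. None of the genes of chlorophyll synthesis, breakdown, antenna targeting or photoprotection was called in these 70 Gy comparisons of ATM and atm-1.

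In atr the irradiated library was the lower one. Its antenna sum was 891 FPKM in the irradiated library and 6438 FPKM in the untreated one. With 1 library against 1 there was no test, and 14 of 15 antenna genes were more than 2-fold lower, where 14.4% of all genes were. Lhcb1.1 was at 9.34 FPKM against 174 FPKM, Lhca6 at 5.64 against 94.5 FPKM and CP26 at 35.4 against 504 FPKM. CabE, at 25.5 against 35.2 FPKM, was the antenna gene that moved least. Among the ELIPs, Os07g0178800 was at 276 FPKM against 90.3 FPKM, higher in the irradiated library.

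Set against ATM, the 70 Gy response of atr differed in 5 antenna genes and in Os03g0165375, 6 of 21 members, where 1.03% of all genes were called in the same direction. The compared ATM libraries had no read of Os03g0165375 and so no spread for it, and its call is given as a description. The antenna median of that difference in responses was -3.42, against 0.02 over all genes. It was -4.04 (SE 0.85, adjusted p = 0.0373) for CP26, -3.67 (SE 0.66, adjusted p = 0.0162) for cab, -3.62 (SE 0.73, adjusted p = 0.0301) for LHCI type I and -3.42 (SE 0.75, adjusted p = 0.0478) for LHCB in limma. CAB-8 was the fifth antenna gene, at -3.35 (SE 0.61, adjusted p = 0.0179). The calls for cab and CAB-8 held whichever ATM library was left out, whereas those for LHCB and CP26 were lost without any 1 of the 6, and that for LHCI type I without ATM 70 Gy replicate 1, ATM control replicate 1 or ATM control replicate 3. With the atr and ATM libraries of these 4 groups fitted alone, none of the 5 antenna calls held (adjusted p from 0.052 to 0.201); of the 3 members called there, 1, Os03g0165375, was among the 6. Limma-voom did not call Os03g0165375 (adjusted p = 0.675) or CP26 (0.0578). The count of calls fell to 3 without ATM 70 Gy replicate 1, ATM control replicate 1 or ATM control replicate 3. It was 2 with a pseudocount of 0.1 FPKM and 10 without both libraries that had few low-read genes. In the same pair of atr libraries 10 of 12 chlorophyll synthesis genes were more than 2-fold lower at 70 Gy, with CHLG at -2.41 and DVR at -2.35, while 4 of 6 breakdown genes were higher, with SGR at 2.64, and 1 was lower, Os04g0692600, described as STAY-GREEN LIKE, at -1.48. The mesophyll markers summed to 1266 FPKM against 9278 FPKM untreated; their part in the antenna difference was not tested.

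**Figure D5:**
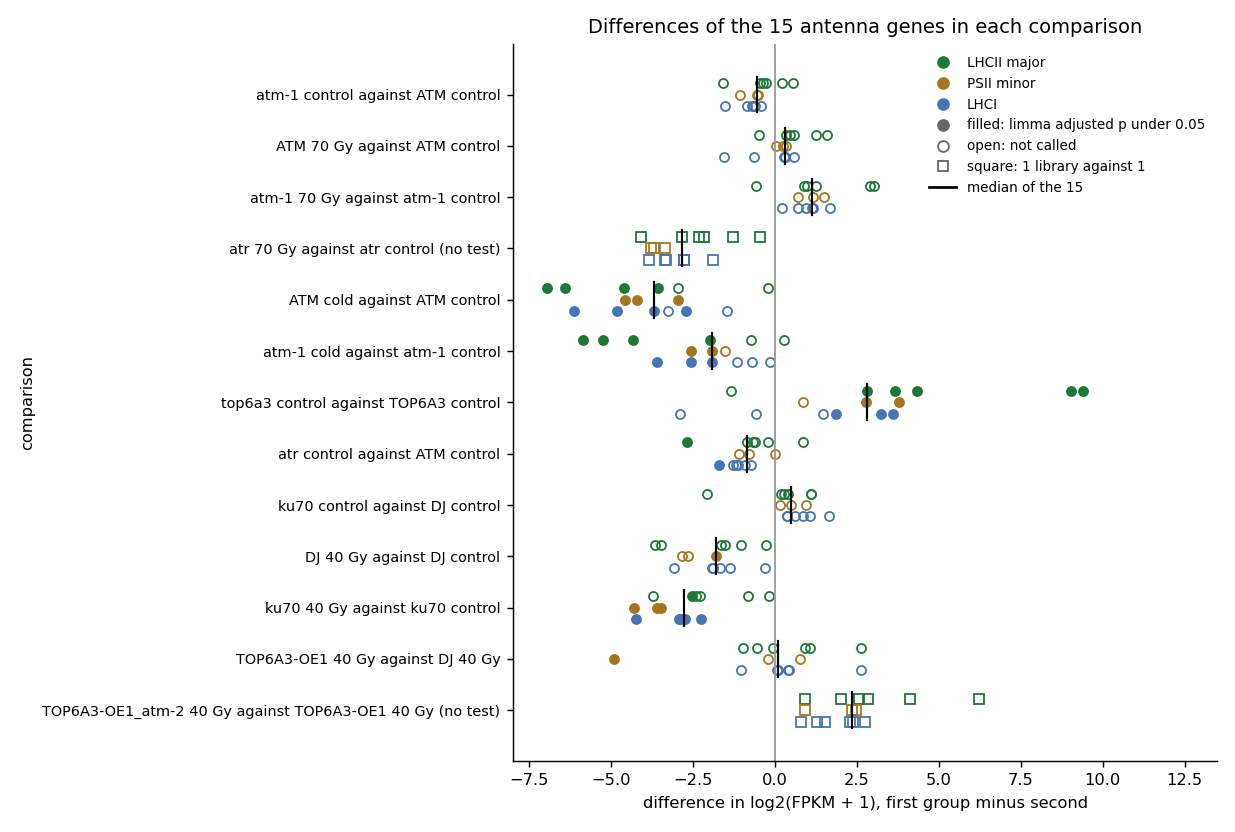
Difference in log2(FPKM + 1), first group minus second, of the 15 antenna genes in 13 comparisons, by class. Filled circles passed limma's adjusted p under 0.05, open circles did not, squares come from 1 library against 1 with no test, and black bars are medians of the 15. The median is -3.71 for cold in ATM, -1.93 for cold in atm-1 and 2.81 for top6a3.

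In the DJ wild type, 40 Gy went with lower antenna levels. The sum was 14772 and 11632 FPKM at 40 Gy and 38759.9 and 30949 FPKM untreated, and all 15 differences were negative, with a median of -1.82 against -0.00364 over all genes. Of 21 members tested 2 were called, CP26 and Os03g0165375, where 1.03% of all genes were. CP26 was at 1109 and 1025 FPKM against 4351 and 3262 FPKM (-1.82, SE 0.23, adjusted p = 0.0449, limma). Os03g0165375 was at 18.95 and 10.98 FPKM and had no read untreated, at least 26.4-fold higher if low counts were recorded. In this set it had reads in those 2 libraries alone and passed the filter on low values only through them, so its calls here are no independent test and its levels are given as a description. CAB2R was at 77.4 and 506 FPKM against 4541 and 1414 FPKM and CP29 at 326 and 899 FPKM against 4107 and 2829.9 FPKM. Both genes were lower without overlap, as were 21.0% of all genes tested, and neither passed the test (adjusted p = 0.21 and 0.105, limma). CAB1R overlapped, at 7649.7 and 2590.3 FPKM against 6739.7 and 4351 FPKM. The CP26 call was lost without any 1 of the 4 libraries (adjusted p from 0.0535 to 0.101). The mesophyll markers were lower as well, with sums of 5419 and 7897 FPKM at 40 Gy and 15873 and 31719 FPKM untreated and a median difference of -1.85 over the 9 tested. Of those 9, 1 fell, the Rubisco small subunit gene Os12g0292400, by 1.85 on the log2 scale (adjusted p = 0.0156, limma). The part of the markers in the antenna values was not tested.

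The libraries labelled ku70 gave the most antenna calls of the smaller set at 40 Gy. The sum was 10499.7 and 8206 FPKM at 40 Gy and 58410.1 and 60970.2 FPKM untreated. Of 21 members 11 fell and none rose, where 7.08% of all genes were called lower. The antenna median was -2.77, and the median over all genes was itself -0.29. CP26 was at 696 and 595 FPKM against 7122 and 7321 FPKM (-3.49, SE 0.23, adjusted p = 0.00469, limma), CP29 at 436 and 352 against 4822 and 4712 FPKM (-3.60, SE 0.51, adjusted p = 0.0187) and CP24 at 30.7 and 54.04 against 1027 and 672 FPKM (-4.32, SE 0.66, adjusted p = 0.0228). Both irradiated values of each monomer were below both untreated values, as for 32.6% of all genes tested.

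All 6 photosystem I genes fell at 40 Gy in the libraries labelled ku70, against 1 of 6 trimeric genes. Lhca6 had no read at 40 Gy and was at 21.7 and 14.95 FPKM untreated, at least 90.5-fold lower if low counts were recorded. Of the genes detected in those irradiated libraries only 1.81% and 1.37% had 1 to 10 reads, so that bound is uncertain. CAB-8 was at 1919.8 and 1383 FPKM against 12403 and 11881 FPKM. LHCB, the trimeric gene that fell, was at 1458 and 1190.0 FPKM against 7034 and 8375 FPKM (-2.54, SE 0.23, adjusted p = 0.00772, limma). CAB1R, at 2662 and 2084 FPKM against 11191 and 11994 FPKM, did not overlap and did not pass the test (-2.30, adjusted p = 0.0713). PSBS1 fell from 4614 and 4888 to 767 and 713 FPKM (difference -2.68, SE 0.28, adjusted p = 0.00959). The count of calls rests on few libraries: it was 9 without ku70 40 Gy replicate 1, 7 without replicate 2, 2 without ku70 control replicate 1 and 1 without ku70 control replicate 2. CP29 and Lhca6 each lost their call without any 1 of the 4 libraries, while CP26 kept it throughout.

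Other genes changed at 40 Gy in the libraries labelled ku70 too. Of 11 chlorophyll synthesis genes 5 fell, with CHLH, another magnesium chelatase subunit, at -4.71 (adjusted p = 0.00778) and CRD1 at -2.39 (adjusted p = 0.00631) in limma. SGR, which starts chlorophyll breakdown, rose by 3.05 (adjusted p = 0.00888) and Os04g0692600, the STAY-GREEN LIKE gene, fell by 1.75 on the log2 scale (adjusted p = 0.0111), 2 of 6 breakdown genes tested. GLK1 changed by -2.67 (adjusted p = 0.0133) and OsSTN7, the kinase of state transitions, by -2.09 (adjusted p = 0.0466). Of 9 mesophyll markers tested 5 fell, and their sum went from 32713 and 28121 FPKM to 2662 and 2428 FPKM. Detected genes numbered 15067 and 15005 in the irradiated ku70 libraries against 21755 and 20191 untreated. The part of the markers and of detection in the antenna values was not tested.

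No antenna gene was called in the difference between the 40 Gy responses of the libraries labelled ku70 and of DJ, where 1.15% of all genes were called, and at an unadjusted p under 0.05 there were 5 antenna genes. The 1 member called was Os03g0165375, which entered the test only through irradiated DJ and had no read in either group labelled ku70. The antenna median was -1.09 against -0.27 over all genes. Untreated libraries labelled ku70 and DJ did not differ in any member by limma, where 0.62% of all genes were called, with an antenna median of 0.48. At an unadjusted p under 0.05 there were 8 members, and limma-voom called 0. There LHCB was at 7034 and 8375 FPKM in those labelled ku70 against 3887 and 3269 FPKM in DJ (adjusted p = 0.237), and CP26 at 7122 and 7321 against 4351 and 3262 FPKM (adjusted p = 0.299). Both genes were higher in both libraries labelled ku70, as were 20.6% of all genes tested. At 40 Gy no antenna gene was called between the lines by limma, where 2.75% of all genes were, and 2 antenna genes had an unadjusted p under 0.05. Os03g0165375 was called there too, at least 34.8-fold lower in the libraries labelled ku70 if low counts were recorded. It was again called only through the irradiated DJ libraries, and without either of them it could not be tested.

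The library labelled TOP6A3-OE1, whose TOP6A3 level goes against its label, was set against DJ at 40 Gy, since it has no untreated counterpart. Of 21 members 5 were called lower and none higher, where 1.69% of all genes were called lower, and 1 of the 5 was an antenna gene. Another of the 5 was Os03g0165375, again through irradiated DJ alone. The antenna gene, CP24, was at 2.46 FPKM (54 reads) against 55.7 and 196 FPKM (-4.93, SE 0.81, adjusted p = 0.0329, limma). PSBS2 was at 2.71 against 431 and 328 FPKM (-6.67, SE 0.46, adjusted p = 0.00129) and PSBS1 at 99.9 against 1918 and 1182 FPKM (-3.90, SE 0.34, adjusted p = 0.00285). All 3 were below both DJ values, as were 28.8% of all genes tested. Os07g0178800 had no read, at least 398-fold lower than the 63.3 and 82.9 FPKM of DJ, and its call was lost without DJ 40 Gy replicate 1 (adjusted p = 0.133) or 2 (0.15). The antenna sum was 13447 FPKM, inside the DJ range of 14772 and 11632 FPKM, and the antenna median was 0.09. Limma-voom did not call CP24 (adjusted p = 0.631) or PSBS2 (0.167). The group labelled TOP6A3-OE1 is 1 library, assumed to vary like the other groups.

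The library labelled TOP6A3-OE1_atm-2, irradiated at 40 Gy, had the highest antenna sum of the 30 libraries, 68078 FPKM, against 13447 FPKM in that labelled TOP6A3-OE1. With 1 library against 1 there was no test: 12 of 15 antenna genes were more than 2-fold higher and none lower, where 15.9% of all genes were past that fold in the same direction. The 3 largest were Lhcb1.1, at 1369 FPKM against 17.5 FPKM, LHCII type III, at 3305 against 189 FPKM, and PSBS1, at 755 against 99.9 FPKM. CP24 was low in both, at 5.47 FPKM (97 reads) and 2.46 FPKM. Of 11 chlorophyll synthesis genes 9 were more than 2-fold higher, with CRD1 at 3.04, and GLK1 and GLK2 were higher by 2.23 and 1.23. The mesophyll markers summed to 21032 FPKM against 8193 FPKM. Of the detected genes 20.8% had 1 to 10 reads in the library labelled TOP6A3-OE1_atm-2, and 5.80% had in that labelled TOP6A3-OE1.

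Os03g0165375 had reads in few groups. It had none in the 12 ATM and atm-1 libraries that were untreated or irradiated, and 0.517 FPKM in chilled ATM. It was at 6.82, 4.98 and 7.996 FPKM in top6a3, 6.63 FPKM in the library labelled TOP6A3, 11.2 FPKM in untreated atr and 2.65 FPKM in irradiated atr. In the smaller set both irradiated DJ libraries had it, and the other 8 libraries had no read.

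The ELIPs and Lhca6 also had unlike levels in the library sets. The PsbS genes were closer, with means of 1761 and 2016 FPKM for PSBS1 and 190.5 and 163.9 FPKM for PSBS2 in the larger and the smaller set. Lhca6 was at 201, 276 and 227 FPKM in untreated ATM and 21.7 and 14.95 FPKM in untreated ku70, and Os01g0246400 was at 203, 20.6 and 733 and 6.99 and 12.9 FPKM. Replicates of the ELIPs were far apart, and Os07g0178800 ran from 42.5 to 1167 FPKM over 3 untreated ATM libraries. These levels stand in sets that were deposited apart, so no test was run between them.

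The authors' deposited table of fold changes could be set beside 9 of these comparisons, whose own values come from the fit above. For chilled ATM the authors' deposited table gave all 15 antenna genes the same sign, with a median of -3.70 against -3.71 here. For chilled atm-1 the authors' deposited table gave 14 the same sign and medians of -2.09 and -1.93, and for ku70 at 40 Gy all 15 and medians of -2.84 and -2.77. In the authors' deposited table the signs matched for all 15 antenna genes in irradiated atr and irradiated DJ, and for 13 in irradiated ATM. The authors' deposited table departed most in 3 comparisons. For the pair labelled TOP6A3-OE1, whose column in the authors' deposited table is headed in the reverse order and was turned here to TOP6A3-OE1_atm-2 minus TOP6A3-OE1, 10 of 15 had the same sign and the median was 0.69 against 2.34. The authors' deposited table also departed for atm-1 at 70 Gy, where 6 of 15 had the same sign and its median was -0.14 against 1.12 here. The authors' deposited table listed CAB1R at -1.43 and CAB2R at -1.13 for that comparison, both opposite in sign to the values here. In the authors' deposited table top6a3 was compared with a sample named K3, which matched no library label. There the authors' deposited table gave 14 of 15 the same sign and a median of 0.48 against 2.81 here, with CAB1R at 0.48 against 4.34. The column of the authors' deposited table headed KU70 equalled that of DJ within 0.001 for 10 of 10 shared members.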

How the data were processed

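Leaf total RNA was sequenced with a strand-specific kit, per the labels' protocols. The authors deposited levels per gene, whose unit, FPKM, was inferred from the values; divided by the worth of 1 read in its library, 100% of values came out as whole reads within 0.01. No source used here names the aligner, the counter or the build. The table of comparisons that the authors deposited holds log2 fold changes and p-values; its p-values were not used. No library column was left unmapped (0).

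Differences of log2(FPKM + 1) were tested with limma-trend (R 4.3.3 with limma 3.58.1 and the package data.table, version 1.17.8) over genes that reached 1 FPKM in 2 or more libraries of a set, 24582 genes in the 20-library set and 23063 in the 10-library set, 1 mean per group, two-sided p, Benjamini-Hochberg over all genes tested, called under 0.05. The residual degrees of freedom were 10 and 4. A lone library is assumed to vary like the other groups. Values were tabulated and drawn with Python 3.11.15, pandas 2.3.3, numpy 2.4.6 and matplotlib 3.10.9, and the fit was tested on simulated data. Depth was 10364355 to 16477147 recovered reads per library; intervals and the floor of 3 reads cover counting error only.

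The members, lists and tests were chosen with earlier results of these data known, and 2 comparisons (the responses of atr and of chilled atm-1 against ATM) were added after the values were seen. Up to 4 called members with the largest differences were named per comparison, or the 2 with the smallest p, and 3 of at least 20 FPKM in pairs of lone libraries; CAB1R, CAB2R, Lhcb1.1, LHCB, CP29, CP26 and CP24 were given where useful. Other members named (CabE, CAB-8, Lhca5, Lhca6, PSBS1 and ELIPs) were chosen after their values were seen. Alternatives were the pseudocount, the filter, the scaling, limma-voom, library weights, the groups fitted, a replicate block and each library left out.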

Additional observations from a re-analysis of the deposited data

Results flagged for a closer look

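The 70 Gy response of atr differed from that of ATM by an interaction term in limma for 6 members. For Os03g0165375 the compared ATM libraries had no read and so no spread. The difference in log2(FPKM + 1) was -3.42 for LHCB, -4.04 for CP26 (ASCAB9-A), -3.62 for LHCI type I, -3.35 for CAB-8, -3.67 for cab and -1.74 for Os03g0165375. It rests on 1 untreated and 1 irradiated atr library, and with only the 4 compared groups fitted none of the 5 antenna genes was called.

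The difference in log2(FPKM + 1) between the 40 Gy responses of the libraries labelled ku70 and of DJ was -3.95 for Os03g0165375, past limma's threshold. The gene had no read in the libraries labelled ku70 and was at 18.95 and 10.98 FPKM in irradiated DJ. It passed the filter on low values only through those 2 libraries, so the call is no independent test.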

How the results depend on the processing

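Counts are of 21 members called. Those for DJ at 40 Gy, the ku70 response, ku70 against DJ at 40 Gy and TOP6A3-OE1 include Os03g0165375, which entered that set only through irradiated DJ. The counts for untreated atr and the atr response include it too, with no read in the compared ATM libraries. No alternative reversed a direction, and the causes of the moves below were not tested. With library weights, calls were 2 for ATM at 70 Gy and 1 for atm-1 at 70 Gy (both 0 otherwise), 1 for DJ at 40 Gy (otherwise 2) and 10 for the atr response against ATM (otherwise 6). Without both atm-1 control replicate 1 and ATM 70 Gy replicate 3 they were 1, 1 and, for the atr response, 10. Limma-voom on recovered reads called 8 for chilled atm-1 (otherwise 13), 2 for TOP6A3-OE1 (otherwise 5) and 2 for the ku70 response against DJ (otherwise 1). With only the compared groups fitted, and so fewer libraries, 0 were called for chilled atm-1, untreated atr, DJ at 40 Gy, the ku70 response and ku70 against DJ at 40 Gy, and 3 for the atr response, of which 1 was among the 6. For chilled atm-1, DJ at 40 Gy and ku70 against DJ at 40 Gy that fit called no gene at all. A pseudocount of 0.1 FPKM gave 2 for the atr response, and no filter gave 1 for DJ at 40 Gy.

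With 1 library left out, counts ran from 9 to 11 for top6a3, 13 to 15 for chilled ATM, 11 to 13 for chilled atm-1, 2 to 3 for untreated atr, 0 to 2 for DJ at 40 Gy, 1 to 9 for ku70 at 40 Gy, 0 to 1 for the ku70 response and for ku70 against DJ at 40 Gy, 3 to 5 for the atr response, and 4 for TOP6A3-OE1. They stayed at 0 for ATM and atm-1 at 70 Gy, their difference, atm-1 against ATM untreated and irradiated, ku70 against DJ untreated and the cold response difference. In pairs of lone libraries the count past 2-fold was 17 for atr, 15 (16 with a pseudocount of 0.1) for TOP6A3-OE1_atm-2 and 9 (10) for the cold libraries. Of 893 values of named members under an alternative, 760 kept their direction and side of the threshold, 131 lost the call and 2 gained it.

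The replicate numbers gave no clear sign of pairing: deviations of same-numbered libraries correlated from -0.48 to 0.26 over 30 pairs, and from -0.07 to 0.01 over 12 pairs of the smaller set. In that set each value repeats under both replicate numbers, so its pairs are not independent and the check is weak. With the number as a replicate block, calls were 0 for DJ at 40 Gy, the ku70 response and ku70 against DJ at 40 Gy, 4 for untreated ku70 against DJ, 12 for irradiated ku70 and 0 for ATM and atm-1 in their 70 Gy comparisons. Comparisons with a lone library in an arm could not be fitted with a replicate block.

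Lone libraries in 7 groups, 2 libraries per group in the smaller set and 4 residual degrees of freedom there limit what can be called. Lhca6, the ELIPs and Os03g0165375 sit at few or no reads in some groups, where the fitted difference follows the pseudocount.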
